A study of Schmidtea mediterranea with 58 samples.

Results

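H3K4me3, the trimethylated form of lysine 4 of histone H3, was followed at 1035 genomic loci of the planarian *Schmidtea mediterranea* where the mark was lower after knockdown of *set1* and higher after knockdown of *mll* in whole worms. The loci are pairs of regions, 1 listed for each knockdown, that overlapped by at least 50% of the shorter region. A pair was taken when both *set1* RNAi libraries lay below both of their control libraries and both *mll* RNAi libraries lay above both of theirs. Of 6516 overlapping pairs, 1035 (15.9%) met this rule, and they comprised 1035 *set1* regions and 1031 *mll* regions. The loci were thus chosen by the whole-worm normalized counts of these 8 libraries, and those counts are given below as a description and were not tested.

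Chromatin immunoprecipitation and sequencing (ChIP-seq) was performed on whole worms and on sorted X1 and Xins cells. In planarian work X1 denotes dividing cells, lost on irradiation, and Xins denotes cells that are insensitive to it, and the tables hold no expression values with which to check these populations against their markers. Knockdown was by feeding of double-stranded RNA (RNAi), during 6 days for *set1* and 9 days for *mll*, with separate *unc* RNAi controls for each, 2 libraries in each group and days of control feeding not given in the labels. The untreated X1 and Xins libraries came from worms with no RNAi. No source says whether the 2 libraries of a group came from separate worms or cultures, so every p-value measures only the spread between these libraries, and the knockdowns differed in days as well as in gene. The extent of either knockdown could not be read from the tables.

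H3K4me3 is a histone mark found mainly around the starts of transcribed genes. Enzymes of the SET1 and MLL families, which work in complexes with shared partner proteins, add methyl groups to this lysine. In fruit flies and mammals, SET1 enzymes are known for much of the bulk of the mark across promoters, and MLL enzymes for the mark at more restricted sets of genes, including those of body patterning. In planarians, X1 cells include the neoblasts, the stem cells from which all other cell types are renewed.

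Opposite directions were no rarer among the pairs than shared ones. Besides the 1035 loci, 1077 pairs were higher after *set1* and lower after *mll*, 1027 were lower after both and 597 were higher after both. At the remaining 2780 pairs the libraries of the groups overlapped in at least 1 of the tables. As the background of the rule, and not as a result about the loci, both RNAi libraries lay below both controls at 41.2% of the 8633 listed *set1* regions, and above them at 29.5% of the 5169 listed *mll* regions. The loci lay on 930 scaffolds, 846 of which held 1 locus, and were nearest to 1030 genes, 5 of which were nearest to more than 1 locus. The scaffold with the most loci, v31.000175, held 5, with *set1* changes between -0.17 and -0.04 and *mll* changes between 0.08 and 0.26 on the log2 scale. The files identify genes by number only, so no function is given for any of them.

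**Figure D1:**
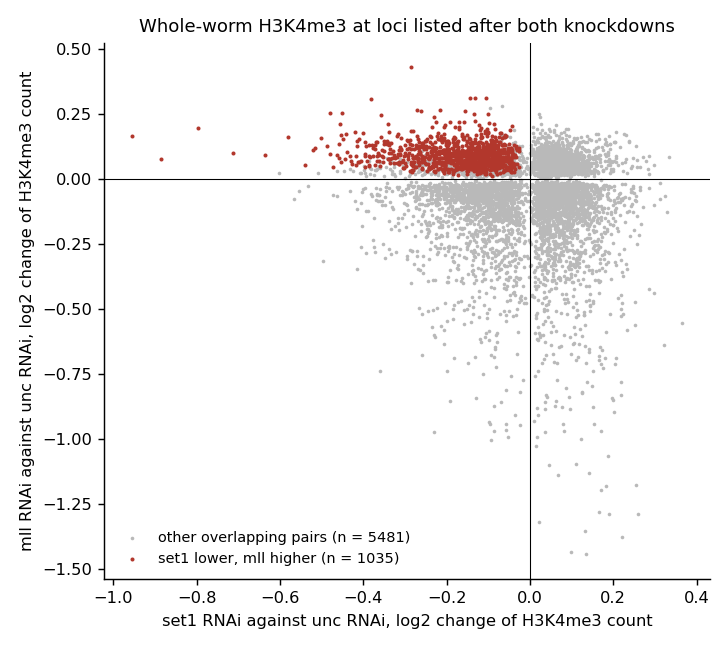
Log2 change of the H3K4me3 normalized count in whole worms after set1 RNAi (horizontal) and after mll RNAi (vertical) at each overlapping pair of listed regions, with the 1035 loci in red and the other 5481 pairs in grey. The loci fill the upper left part because the rule placed them there, and they lie close to both axes, with medians of -0.14 and 0.08.

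Most of the changes that chose the loci were small. The log2 change of the normalized count, a read count that the authors scaled between the libraries of a table, was taken as the difference of the group means of log2(normalized count + 1). Its median over the loci was -0.14 after *set1* RNAi (quartiles -0.22 and -0.10, lowest -0.96) and 0.08 after *mll* RNAi (quartiles 0.06 and 0.11, highest 0.43). At the median locus the level thus changed by -9.47% after *set1* RNAi and was 6.03% higher after *mll* RNAi. The *set1* change was the larger of the pair at 803 loci. Both changes reached 0.1 at 290 loci, 0.2 at 14 and 0.3 at 1.

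The loci were strongly marked regions, and their depth set how small a change could be seen. The median *set1* region held 1103 and 1087 normalized counts in the RNAi libraries and 1193 and 1218 in the controls, against 837 to 857 over all listed *set1* regions. The median *mll* region held 1088 and 1091 after RNAi and 1030 and 1033 in the controls, against 748 to 804 over all listed *mll* regions. Normalized counts were whole multiples of a step, the worth of 1 read, which gave medians of 887 to 1671 reads per library. The counting error of a log2 change at the median locus was then 0.043 for *set1* and 0.045 for *mll*. Of 1034 loci with reads recovered, the change was over 2 counting errors at 809 for *set1* and at 488 for *mll*. The rule required separated groups in these same libraries and so favoured such changes. The share over all listed regions was not computed, so these counts are no result about the loci. The spread between libraries of a group was 0.037 and 0.030 (SD). The rule favoured loci whose libraries lay close together, so this spread is not an unbiased measure of noise.

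A second measure in the same tables, the enrichment of each group over its input (chromatin sequenced without immunoprecipitation), moved with the normalized count at fewer than 50% of the loci after *set1* RNAi and at somewhat more than 50% after *mll* RNAi. The median enrichment of the loci was 12.99-fold after *set1* RNAi and 12.66-fold in its control, and 11.5-fold after *mll* RNAi and 11.4-fold in its control. It was lower after *set1* RNAi at 431 loci and higher at 601, with a median log2 ratio of 0.04 beside 0.19 over all listed *set1* regions. After *mll* RNAi it was higher at 560 loci and lower at 473, with a median log2 ratio of 0.02 beside -0.12 over all listed *mll* regions. Enrichment moved in both of the directions that chose the locus at 231 loci and in both opposite directions at 272. The tables give 1 enrichment per group, so its spread between libraries is unknown. The whole *set1* table stood higher by enrichment than by count, with medians over all listed regions of 0.19 and 0.01. By either measure the median locus lay below the median of that table. The loci were chosen for low counts after *set1* RNAi, and enrichment uses the same libraries, so this position is no separate evidence.

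The locus with the largest pair of changes lay on scaffold v31.002738, 724 bases from the start of its nearest gene, SMED30003214. Its *set1* region (38801 to 39800) held 587 and 552 normalized counts after *set1* RNAi and 715 and 769 in the controls, a log2 change of -0.38 (SE 0.051). Its *mll* region (38501 to 40300) held 931 and 928 after *mll* RNAi and 766 and 735 in the controls, a change of 0.31 (SE 0.044). Neither pair of groups overlapped, as the rule requires. The gap between the nearest RNAi and control libraries was at least 17.3% of the control mean, the widest of the 8 loci named here for the size of their changes. Enrichment over input was nearly level at this locus, at 17.6-fold against 17.2-fold in the control after *set1* RNAi and 13.6-fold against 13.8-fold after *mll* RNAi.

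The largest gain after *mll* RNAi was at the locus of SMED30031961, on scaffold v31.004004. The *mll* region (26601 to 27600) held 447 and 421 normalized counts after *mll* RNAi against 302 and 343 in the controls, a log2 change of 0.43 (SE 0.068). The *set1* region (26801 to 28000), 44 bases from the gene start, held 771 and 693 after *set1* RNAi against 909 and 874 in the controls, a change of -0.29 (SE 0.048). Here the enrichment was higher with the count after *mll* RNAi, at 6.86-fold against 5.07-fold, but it was also higher after *set1* RNAi, at 11.8-fold against 10.8-fold.

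At SMED30000473, on scaffold v31.005198, both measures moved together. Its *set1* region (10601 to 11600), which spanned the gene start, held 534 and 492 normalized counts after *set1* RNAi against 750 and 681 (log2 change -0.48), with an enrichment of 9.56-fold against 12.2-fold. The *mll* region (10301 to 12000) stood at 715 and 706 against 574 and 618 (log2 change 0.25), with an enrichment of 8.27-fold against 6.62-fold. SMED30011479, on scaffold v31.025920, showed the same order of libraries and of enrichments at a much weaker peak. Its *set1* region (1101 to 2700) held 438 and 470 against 581 and 662 in the controls, and its *mll* region (1501 to 2800) held 468 and 436 against 380 and 376. Enrichment there was only 2.34-fold after *set1* RNAi and 3.16-fold after *mll* RNAi, against 2.71-fold and 2.98-fold in the controls.

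The other 4 loci of this set had *set1* changes between -0.36 and -0.23 and *mll* changes between 0.24 and 0.26. SMED30010587 (v31.033025, 5301 to 6300 in both tables) held 329 and 310 normalized counts after *set1* RNAi against 375 and 397. After *mll* RNAi the same bases held 381 and 357 against 311 and 302. It was 1 of only 51 loci with the same start and end in both tables. SMED30016993 (v31.010803, *set1* region 9501 to 11000) held 584 and 604 after *set1* RNAi against 711 and 715. Its *mll* region (10001 to 11000) held 368 and 390 against 302 and 330. No RNAi library at this locus came within 12.2% of the control mean of a control library. SMED30010181 (v31.012571, *set1* region 7801 to 8900) held 521 and 498 after *set1* RNAi against 669 and 638. Its *mll* region (7501 to 8800) held 591 and 584 against 482 and 509. SMED30035848 (v31.007635), one of 4 genes listed at its locus, is described further below, because another part of the same locus was lower after *mll* RNAi in X1 cells. Its *set1* region (7401 to 9900) held 1211 and 1160 against 1362 and 1419, and its *mll* region (7201 to 9300) 926 and 938 against 799 and 782.

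**Figure D2:**
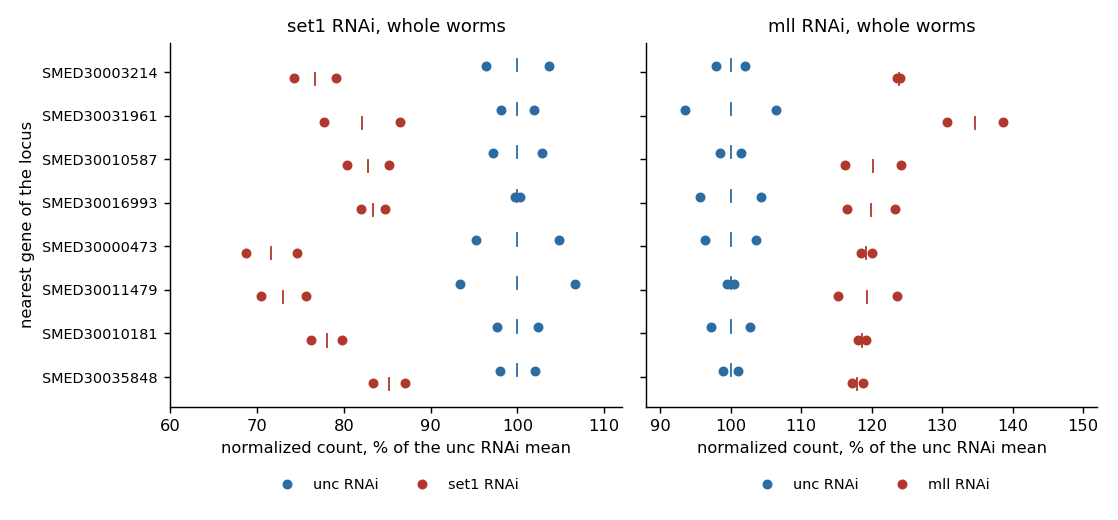
Normalized H3K4me3 count of each whole-worm library at the 8 loci with the largest smaller change, as a percentage of the mean of the 2 unc RNAi libraries, for set1 RNAi (left) and mll RNAi (right); dots are libraries and short bars are group means. At every one of the 8 loci both red dots lie below both blue dots on the left and above both on the right, as the rule requires.

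The rule has no minimum size, so some loci were barely inside it. At SMED30019262 (v31.000226, *set1* region 100801 to 101800) the *set1* RNAi libraries held 646.49 and 676.05 normalized counts and the controls 676.06 and 687.68. At SMED30013512 (v31.008091, *mll* region 6401 to 8300) the *mll* RNAi libraries held 1740.21 and 1747.15 and the controls 1740.16 and 1686.00. In each case the nearest RNAi and control libraries were less than 1 read apart. Just outside, SMED30023395 (v31.001143, *mll* region 43901 to 44900) had 939.03 and 928.00 after *mll* RNAi against 928.04 and 905.93. SMED30025176 (v31.000102, *mll* region 16801 to 17800) had 664.27 and 671.15 against 664.33 and 651.37. Membership at this edge was decided by differences far below the counting error.

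The *set1* regions of the loci lay beside gene starts more often than on them. Of the 1035 *set1* regions, 441 (42.6%) spanned the start of a gene, against 66.8% of all listed *set1* regions. A further 247 (23.9%) lay 1 to 200 bases from the nearest start, 307 (29.7%) lay over 200 and up to 1000 bases away, and 40 lay farther, where 1214 and 1209 of the 8633 listed *set1* regions lay in those ranges of distance. The other lowered regions lay alike: 44.0% of the 2519 *set1* regions lower in both libraries but outside the loci spanned a start. Among pairs that were higher after *set1* RNAi the share was 89.0% with a lower and 93.1% with a higher *mll* region. None of these differences in position was tested.

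The *mll* regions of the same loci were wider and reached the gene start more often. Of 1031, 671 (65.1%) spanned a start, against 75.4% of all listed *mll* regions and 84.5% of the *mll* regions lower after both knockdowns. The 1527 listed *mll* regions higher in both libraries, which include those of the loci, lay alike. Of them 66.1% spanned a start, and their median width was 1500 bases. The *mll* regions of the loci also had a median width of 1500 bases, against 1300 bases for the *set1* regions of the loci, with a median of 1100 bases shared. The *mll* region was wider at 540 loci, narrower at 369 and as wide at 126. It lay nearer to the gene start than the *set1* region at 430 loci, farther at 223 and at the same distance at 382, of which 318 spanned the start in both tables.

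**Figure D3:**
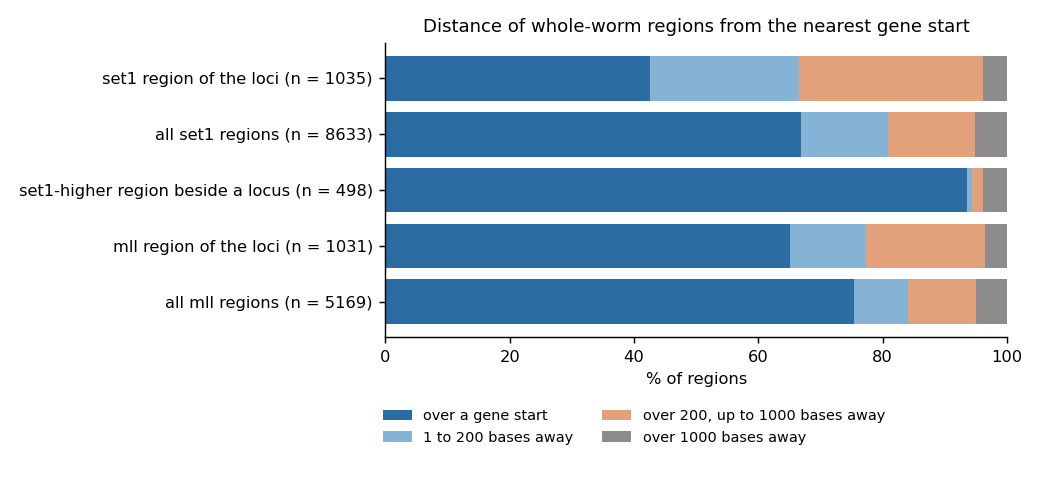
Share of whole-worm regions (horizontal, percent) by distance from the nearest gene start, for the set1 and mll regions of the loci, all listed regions of each table, and the set1-higher regions that overlap a locus. The set1 regions of the loci spanned a start in 42.6% of cases, their mll regions in 65.1%, and the set1-higher regions beside them in 93.6%.

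At 502 of the 1035 loci (48.5%) the lowered *set1* region overlapped another region of the same table that was higher in both *set1* RNAi libraries. The share was 41.4% among the lowered *set1* regions outside the loci, and overlapping regions were common in this table as a whole, at 63.4% of its regions. The centres of the lowered and raised regions were a median of 750 bases apart (quartiles 650 and 850). The raised region lay nearer to a gene start at 316 of the 502, at the same distance at 163 and farther at 23, and 466 of the 498 raised regions (93.6%) spanned a start. Their median log2 change was 0.08. At 363 loci the *mll* region of the locus also overlapped the raised region by at least 50% of the shorter, so that a single *mll*-higher region overlapped both a *set1*-raised and a *set1*-lowered region. Of the 424 raised regions that overlapped any listed *mll* region, 361 overlapped one that was higher and 73 one that was lower after *mll* RNAi. The raised regions were picked for overlapping a locus, and every locus has a higher *mll* region by the rule. The choice thus favoured this division, which is no result about raised regions. Over all overlapping pairs with a raised *set1* region, the *mll* region was higher at 597 and lower at 1077. Overlapping regions share reads and are not independent.

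Examples of this arrangement, chosen after their values were seen, were the 3 loci where the smallest of the 3 changes was largest. At SMED30021536 (v31.000686) the flank (18101 to 19500), 399 bases from the gene start, held 1570 and 1497 normalized counts after *set1* RNAi against 1760 and 1798. The region over the start (17401 to 18400) held 1935 and 1805 against 1673 and 1707. Within the same libraries the flank was thus lower and the start higher, and the *mll* region that overlapped both (17201 to 19100) held 2252 and 2193 after *mll* RNAi against 2007 and 2003. At SMED30017260 (v31.000313) the flank (49201 to 50400) held 1124 and 1032 against 1363 and 1384. The start (50201 to 51500) held 1374 and 1265 against 1177 and 1150 after *set1* RNAi, and the *mll* region (49201 to 51200) 1682 and 1675 against 1485 and 1576. The groups of libraries did not overlap in any of these 6 comparisons, which the choice of the loci and of the raised regions required. At SMED30020383 (v31.000275) both *set1* regions touched a gene start, with log2 changes of -0.17 at 60601 to 62100 and 0.19 at 61801 to 62800, and the *mll* change was 0.13.

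The tables of sorted cells were not used by the rule. In them a locus was followed wherever a listed region overlapped its *set1* or its *mll* region by at least 50% of the shorter. Loci that are absent from a table have no value there, and 631 of the 1035 loci were listed in none of the 5 tables. The like share of all pairs was not computed. In bulk chromatin, fewer cells of a type and less of the mark per cell cannot be told apart. The test was limma on log2(normalized count + 1), with Benjamini-Hochberg adjustment over all regions of a table at 0.05. Since the authors listed the regions for differing in these very libraries, a call says no more than that the libraries of a group were close together beside the difference.

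After *set1* RNAi in X1 cells the mark was lower at every region listed on the loci. Of the 1035 loci, 234 (22.6%) overlapped 232 of the 554 regions of that table, against 10.0% of all 6516 pairs. The share was 11.9% for the pairs higher after both knockdowns, 10.1% for those lower after both and 2.60% for those higher after *set1* and lower after *mll* RNAi. This difference in listing was not tested, and the loci had the higher read counts described above. All 232 regions were called lower, which is the background of the table, where 99.8% of the 554 were called lower. Their median log2 change was -0.86 (quartiles -0.95 and -0.78), against -0.89 over the table. Enrichment over input was lower after *set1* RNAi at all 232, with medians of 4.59-fold against 9.27-fold in the control. Count and enrichment thus had the same direction at all 232.

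The loci listed in X1 cells had the deeper losses in whole worms, with a median whole-worm *set1* change of -0.21 against -0.13 at the loci not listed. Across the 236 overlaps of a locus with an X1 region both changes ranked together moderately (Spearman's rho 0.30, from separate libraries). The whole-worm values were those that chose the loci, and loci are not replicates of a condition. The X1 regions lay farther from gene starts than the whole-worm regions, at a median of 402 bases, and 43 of 232 (18.5%) spanned a start while 149 (64.2%) lay over 200 and up to 1000 bases away. The table as a whole had a like profile, with 23.6% over a start and 54.2% at over 200 and up to 1000 bases. Depth was modest, with medians of 58.0 and 63.0 reads per region in the RNAi libraries and 137 and 147 in the controls.

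The smallest adjusted p-values in X1 cells belonged to regions whose gene IDs share a number. At SMED30022325 (v31.009816, 1 to 2100) the X1 libraries held 33.1 and 52.3 normalized counts after *set1* RNAi against 186 and 148, a log2 change of -1.97 (SE 0.15, limma adjusted p = 4.4e-33). At SMED30022325.1 (v31.005936, 21201 to 23500) they held 65.2 and 57.5 against 176 and 204, a change of -1.61 (SE 0.13, limma adjusted p = 3.2e-32). These were also the 2 deepest losses among the loci in whole worms, where the first held 470 and 483 against 875 and 889, and the second 555 and 605 against 1118 and 1131. After *mll* RNAi the whole-worm changes were only 0.08 and 0.17, from 726 and 713 against 686 and 679, and from 783 and 732 against 661 and 688. The scaffolds may carry near-identical copies between which reads cannot be assigned, so these are uncertain as 2 separate loci.

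The other 4 regions named by their adjusted p-value were losses of about 1 on the log2 scale at loci with much smaller whole-worm changes. The X1 and whole-worm regions compared are not the same bases, and the difference between them was not tested. At SMED30009581 (v31.002797, 9901 to 12300), 517 bases from the gene start, X1 cells held 124 and 111 after *set1* RNAi against 256 and 256, a change of -1.12 (SE 0.099). In whole worms the *set1* region of that locus (9601 to 11000) held 1148 and 1227 against 1440 and 1437, a change of -0.28. SMED30017721 (v31.013531, 6201 to 8900) held 98.9 and 99.3 against 225 and 229 in X1 cells, a change of -1.19 (SE 0.11). The whole-worm *set1* region there (6101 to 7200) changed by -0.13. The *set1* libraries of X1 cells were thus below 50% of their controls at both loci. SMED30012075 (v31.004443, 21301 to 23600) changed by -1.08 (SE 0.099) and SMED30010969 (v31.000039, 82401 to 84600) by -0.99 (SE 0.099), beside -0.24 and -0.22 in whole worms. The limma adjusted p-values of these 4 regions lay between 3.3e-26 and 3.3e-21.

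After *set1* RNAi in Xins cells 55 loci (5.31%) overlapped 56 of the 106 listed regions, against 2.56% of all pairs and 4.86% of the pairs higher after both knockdowns, and all 56 were called lower, as were 100% of the table. The regions on the loci were 52.8% of those listed in Xins cells and 41.9% of those listed in X1 cells after *set1* RNAi. On any overlapping pair lay 97 of the 106 Xins regions and 411 of the 554 X1 regions. A region can lie on several pairs, so these shares are not particular to the loci. The median log2 change of the 56 regions in Xins cells was -0.83 (quartiles -0.95 and -0.76), equal to that of the table. Their enrichment was lower at 51 and higher at 5. These calls rested on the control libraries: without the first-listed control 20 of the 56 were called by limma, and without the second-listed control 0, with 36 at an unadjusted p below 0.05, although all 56 stayed lower. Regions held medians of 47.0 and 50.0 reads in the RNAi libraries and 69.0 and 78.5 in the controls. The median whole-worm *set1* change was -0.21 at the loci listed in Xins cells and -0.14 at the loci not listed. Over the 56 overlaps with an Xins region the changes ranked together only weakly (Spearman's rho 0.11).

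Among the Xins regions, SMED30013512 (v31.008091, 6601 to 7600) had the smallest adjusted p-value. It held 36.2 and 21.3 normalized counts after *set1* RNAi against 64.5 and 84.4, a log2 change of -1.38 (SE 0.25, limma adjusted p = 9.8e-06). This is the locus that was barely inside the rule on its *mll* side, and its whole-worm *set1* change was only -0.11, over a wider region (6101 to 8100). The deepest loss was at SMED30005554 (v31.002905, 44601 to 45700), with 24.2 and 17.6 against 69.4 and 56.2, a change of -1.55 (SE 0.31, limma adjusted p = 2.0e-05). It was also among the deepest in whole worms, where it held 587 and 528 against 926 and 1011 (log2 change -0.80), and its *mll* region held 820 and 779 against 691 and 702. The remaining 4 named regions, at SMED30030988, SMED30025067, SMED30020317 and SMED30013177, changed by -1.09, -0.90, -1.04 and -1.31. The second-listed RNAi library was the lowest of the 4 libraries at all 6 of these regions.

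There were 27 loci listed after *set1* RNAi in both X1 and Xins cells, and 262 (25.3%) in at least 1 of them. Of all 6516 pairs, 10.0% were listed in X1 and 2.56% in Xins cells. Shares of all pairs for combinations of tables were not computed, so these combined counts have no background. Of the 27, 8 also appeared in the comparison of untreated X1 with Xins cells. At SMED30019808 (v31.000891, 66401 to 68100) X1 cells held 86.8 and 101 normalized counts after *set1* RNAi against 178 and 167, a log2 change of -0.87. In Xins cells the listed region (67701 to 68900) held 64.7 and 50.3 against 98.3 and 102, a change of -0.80. The untreated level (66001 to 68500) was higher in X1, with 157 and 170 against 84.2 and 82.4 in Xins (log2 difference 0.96). This locus thus carried the mark in both populations. A region of it fell in each, but the X1 and Xins regions overlapped only in part. In whole worms the locus changed by -0.41 after *set1* RNAi and 0.07 after *mll* RNAi. SMED30018877 (v31.000866) showed the same pattern, with changes of -0.95 in X1 (96901 to 98300) and -0.77 in Xins (96301 to 97600). Its untreated difference was 0.70. The Xins changes of both are among those that rested on the control libraries.

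After *mll* RNAi the loci were rarely listed in sorted cells, and where they were, both directions occurred. In X1 cells 15 loci (1.45%) overlapped 15 of the 306 listed regions, against 3.27% of all pairs. The pairs higher after both knockdowns were listed about as rarely, at 1.34%, and the share was 5.06% for the pairs lower after both and 7.80% for those higher after *set1* and lower after *mll* RNAi. In Xins cells none of the 12 listed regions overlapped a locus, where 0.230% of all pairs did. Of the 15 regions in X1 cells 7 were called higher, against a background of 6.54% called higher in that table, and 5 were called lower, against a background of 92.2%. Their median log2 change was 0.11, against -1.08 over the 306. Because the rule placed the loci among regions with more of the mark after *mll* RNAi in whole worms, and whole worms contain X1 cells, these shares describe the loci and were not tested against the background. With a limma fit without a trend 2 were called higher and 2 lower.

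**Figure D4:**
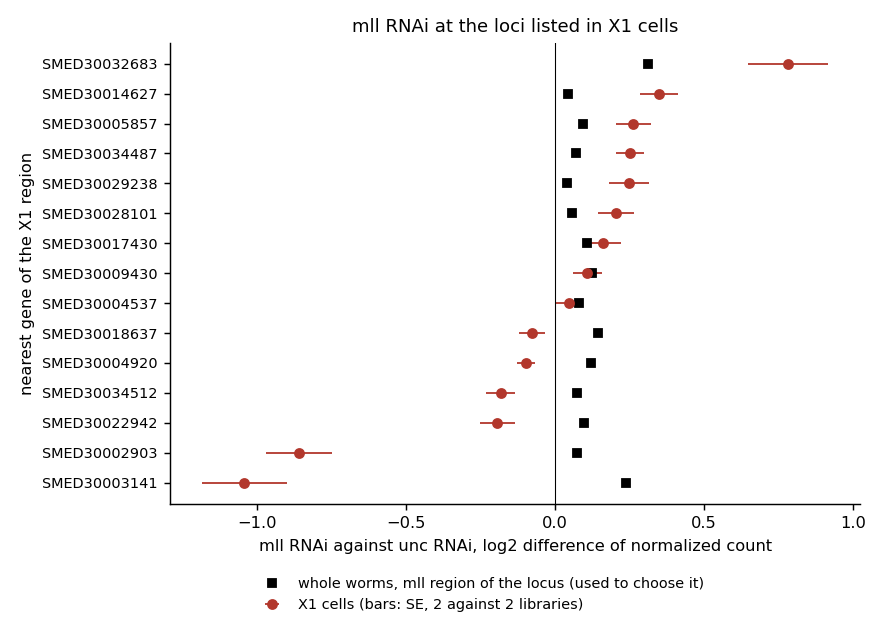
Log2 difference between mll RNAi and unc RNAi at the 15 X1 regions that overlapped a locus (red, with standard errors from limma, 2 against 2 libraries) and at the mll region of the same locus in whole worms (black squares, used by the rule). The X1 values run from -1.04 to 0.78 while all whole-worm values are above 0.

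The clearest gain in X1 cells was at SMED30032683 (v31.003234, 35401 to 36400), a region over the start of the gene with 3 genes listed. The X1 libraries held 99.1 and 95.9 normalized counts after *mll* RNAi against 52.2 and 60.7, a log2 change of 0.78 (SE 0.13, limma adjusted p = 0.00018), and the enrichment was 8.97-fold against 6.16-fold. In whole worms the *mll* region of this locus (35601 to 36800) held 598 and 632 against 485 and 505, a change of 0.31, and its *set1* region (35201 to 36600) 824 and 857 against 893 and 964. The gain was thus larger in X1 cells than in whole worms, a difference that was not tested. At SMED30014627 (v31.004915, 28501 to 29500) X1 cells held 243.7 and 244.2 against 201.1 and 182.4, a change of 0.35 (SE 0.063, limma adjusted p = 0.00026). At SMED30034487 (v31.009566, 4901 to 6300) they held 284 and 283 against 236 and 241, a change of 0.25 (SE 0.046, limma adjusted p = 0.00029). The libraries of each group nearly coincided at that region, but its enrichment was level, at 19.7-fold in both groups.

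The deepest losses in X1 cells after *mll* RNAi were at loci with a gain and a loss side by side in whole worms. At SMED30003141 (v31.007635, 8901 to 10400) the X1 libraries held 40.7 and 44.9 normalized counts after *mll* RNAi against 91.4 and 86.9, a log2 change of -1.04 (SE 0.14, limma adjusted p = 4.0e-05). That region lay on the *set1* region of the locus (7401 to 9900), but it overlapped the *mll* region (7201 to 9300) by less than 50% and also overlapped a neighbouring whole-worm region with a change of -0.97 after *mll* RNAi. At SMED30002903 (v31.009466, 10201 to 12100) the X1 libraries held 98.7 and 82.5 against 172 and 158, a change of -0.86 (SE 0.11, limma adjusted p = 3.0e-05). The *mll* region of that locus (9901 to 10900) was only slightly higher in whole worms, with 421 and 437 against 406 and 410, and a neighbouring region had a change of -0.21. Of the 15 X1 regions, these and SMED30005857 were the 3 that also overlapped a whole-worm region lower in both *mll* RNAi libraries.

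At 6 loci, singled out after their values were seen, X1 cells had a listed region after both knockdowns. All 6 were called lower after *set1* RNAi, as was nearly every region of that table, and after *mll* RNAi 2 were called higher, 2 were called lower and 2 were not called. SMED30005857 (v31.012650) had, by count, the opposite directions of its whole-worm regions. After *set1* RNAi its X1 region (7601 to 9600) held 127 and 121 against 243 and 205, a change of -0.84 (SE 0.10, limma adjusted p = 3.1e-15). After *mll* RNAi the region over the start (7101 to 8100) held 227 and 218 against 184 and 187, a change of 0.26 (SE 0.060, limma adjusted p = 0.0013). The regions share 500 bases, and the listed region of the loss extended farther from the gene start than that of the gain. Regions were listed separately for each knockdown, and X1 counts over the same bases were not compared. In whole worms the same bases (6901 to 9100 in both tables) changed by -0.23 and 0.09. Whole-worm enrichment there was higher after both, at 12.7-fold against 10.8-fold for *set1* and 11.7-fold against 11.6-fold for *mll*. The X1 region of the gain also overlapped a whole-worm region lower in both *mll* RNAi libraries. The lowest whole-worm *mll* change that it overlapped was -0.15.

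The same order held at SMED30017430 (v31.011199), where X1 cells changed by -0.74 after *set1* RNAi (9201 to 10500) and by 0.16 after *mll* RNAi (8401 to 9400, limma adjusted p = 0.024). At SMED30034512 (v31.018320) X1 cells lost the mark after both, with 173 and 170 against 243 and 253 after *set1* RNAi and 255 and 251 against 278 and 296 after *mll* RNAi, the latter a change of -0.18 (limma adjusted p = 0.0039). At SMED30004920 (v31.000515) the *mll* change in X1 was -0.10 (limma adjusted p = 0.011). At SMED30004537 and SMED30018637 the *mll* changes in X1, 0.04 and -0.08, did not pass (limma adjusted p = 0.30 and 0.10).

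Where the loci were listed in untreated cells, they were mostly more strongly marked in X1 than in Xins. The table compares 2 libraries of each, its direction is read from the order in which its name gives the populations, and the part that was read ends on scaffold 1565 of its second run of scaffolds, which covers 500 of the loci. Of these, 203 (40.6%) overlapped 205 of its 1378 regions, against 27.5% of the 3198 pairs on the same scaffolds. The mark was higher in X1 at 167 of the 205 and lower at 38, against 862 and 516 over the table and 419 and 159 over the regions on all pairs. The regions on pairs lower after both knockdowns divided much as those on the loci did, with 128 higher in X1 and 30 lower. Limma called 147 higher in X1, against a background of 56.2%, and 18 higher in Xins, against 32.1%. The median log2 difference was 0.93, beside 0.95 over the table. The direction held at 62 of the 65 regions whose loci were also listed after *set1* RNAi in X1 cells and at 105 of the other 140.

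Both X1 libraries were needed for these calls. With 1 of them left out, limma called 0 of the 205 higher in X1, with 63 and 46 at an unadjusted p below 0.05, although all 167 stayed higher. The first-listed Xins library held a median of 10.0 reads per region on the loci, with 1 read worth 4.56 normalized counts, against 54.0 in the second and 81.0 and 275 in the X1 libraries. Without that library, 165 were called higher in X1 and 24 higher in Xins.

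**Figure D5:**
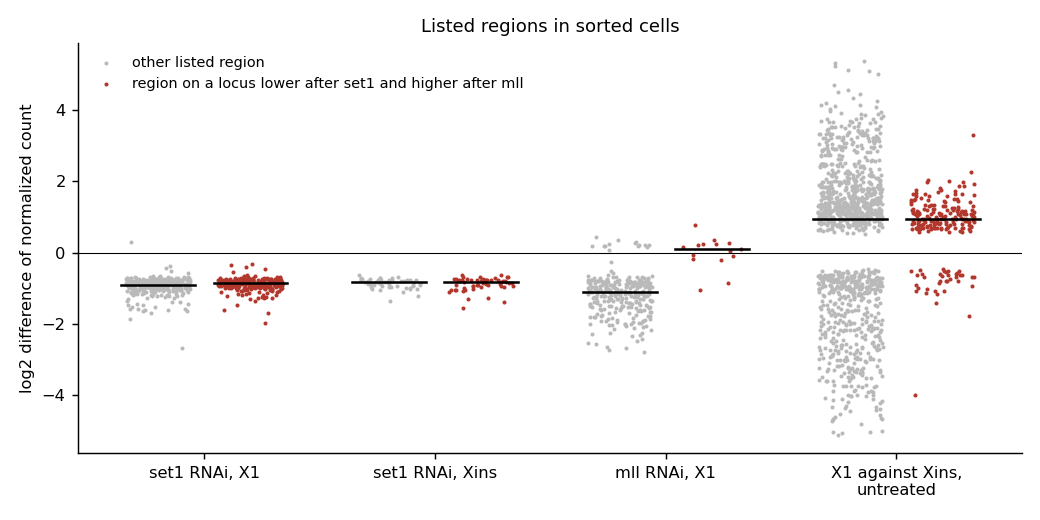
Log2 difference of the normalized count at each listed region of 4 tables of sorted cells, for regions on the loci (red) and the other listed regions (grey), with horizontal bars at the medians. The regions on the loci follow the table after set1 RNAi, with medians of -0.86 in X1 and -0.83 in Xins, lie near 0 after mll RNAi in X1 (median 0.11), and are mostly above 0 in the comparison of untreated X1 with Xins.

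The largest untreated difference toward X1 was at SMED30018954 (v31.000210, 25801 to 27000), which held 32.12 and 30.01 normalized counts in X1 and 0 and 9.44 in Xins. The 0 lies in the shallow library, and the difference did not pass the test (limma adjusted p = 0.051). SMED30000691 (v31.000568, 48801 to 49900), 1012 bases from a gene start, held 32.1 and 38.8 in X1 against 4.56 and 9.44, a log2 difference of 2.25 (SE 0.43, limma adjusted p = 0.011), the lower Xins value being a single read. SMED30026206 (v31.000893, 75601 to 76800) held 49.6 and 43.5 against 4.56 and 23.2 and did not pass (limma adjusted p = 0.057). In each of these regions the libraries of the populations did not overlap, and the first-listed Xins library held at most 1 read.

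The largest difference toward Xins stood far from the others. At SMED30006613 (v31.000339, 189701 to 192500), a region over the gene start, X1 held 4.59 and 3.03 normalized counts and Xins 72.9 and 77.2, a log2 difference of -4.00 (SE 0.32, limma adjusted p = 0.0033), with an enrichment over input of 0.67-fold in X1 and 14.1-fold in Xins. In whole worms this locus changed by -0.32 after *set1* RNAi and 0.08 after *mll* RNAi. It was not listed after *set1* RNAi in X1 or Xins cells, and which cells the whole-worm change came from was not tested. SMED30000109 (v31.000663, 15101 to 17700) held 33.0 and 43.8 in X1 against 141 and 127 in Xins, a difference of -1.79 (SE 0.19, limma adjusted p = 0.0048), and had one of the larger *mll* gains in whole worms, 0.21. At SMED30011189 (v31.000342, 2301 to 3300) X1 held 6.42 and 10.2 against 36.5 and 14.6 in Xins, which did not pass (limma adjusted p = 0.066).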

How the data were processed

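Whole-worm, X1 and Xins chromatin was profiled with an antibody against H3K4me3. The labels list 58 samples, 29 of them H3K4me3 libraries and 29 inputs; the 7 tables hold 28 libraries, and the single untreated whole-worm library was not analysed here. The submitters' processing notes name CASAVA 1.8.2, Bowtie and MACS2; their roles, the genome build, and the version and thresholds of diffReps, after which the tables are named, are not given in the sources used here. Scaffold names begin with v31. Whether the *Drosophila* cells mentioned in the protocol served for scaling is not given either.

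Each deposited table lists, per region, normalized counts of 2 against 2 libraries, their mean as a signal per group, and a ratio, the enrichment of each group over input. The authors' own fold changes and p-values in these tables were not used. Regions repeated for several genes were counted once. Scaffolds came in runs of increasing number, and within a run normalized counts were whole multiples of 1 step (tolerance 0.0075), which gave reads and the depth; steps differed between runs by up to 5.94% within a whole-worm library.

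Loci and all lists were chosen with earlier results of these data known. Named loci were the 8 with the largest smaller whole-worm change, the 6 with the smallest adjusted p-value in each RNAi table of sorted cells, the 3 farthest toward X1 and the 3 toward Xins, and the 2 nearest the rule on either side. Sorted-cell tables were fitted with limma 3.58.1 (R 4.3.3) on log2(normalized count + 1), with a trend where at least 20 regions were listed and Benjamini-Hochberg adjustment at 0.05, after tests on simulated data. Alternatives were pseudocounts of 0.5 and 5, other overlaps, a minimum level of 20, no trend, other scalings and leaving out each library. Intervals and errors of counts cover counting error only.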

Additional observations from a re-analysis of the deposited data

Results flagged for a closer look

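At 5 loci whose *mll* region overlapped an X1 region by at least 50% of the shorter, every *mll* RNAi library was below its controls in X1 cells, although that *mll* region was higher in both whole-worm *mll* RNAi libraries, the values that chose it; the difference between whole worms and X1 cells was not tested. The X1 log2 changes were -0.10 at SMED30004920, -0.19 at SMED30022942, -0.077 at SMED30018637, -0.86 at SMED30002903 and -0.18 at SMED30034512. The whole-worm changes were 0.12, 0.10, 0.14, 0.07 and 0.07 in the same order. The X1 change at SMED30018637 was not called (limma adjusted p = 0.10). At SMED30002903 the X1 region also overlapped a whole-worm region lower in both *mll* RNAi libraries. At SMED30004920 the X1 region overlapped a whole-worm region with an *mll* change of -0.056, which was not lower in both libraries. The X1 region at SMED30003141, with a change of -1.04, is not among the 5 because it overlapped the *mll* region of its locus by less than 50%. The regions compared are not the same bases in the 2 tables.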

How the results depend on the processing

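No paired analysis was possible because the tables do not say which of the 2 values in a cell belongs to which replicate number. Of 101 alternative values, 85 kept their direction and their size within 1.5 times or 1 spread. The number of loci was 319 when limma also had to call both whole-worm regions, a filter on the same libraries that chose the loci and no separate evidence, and 231 when the enrichment over input had to move the same way; both alternatives add a condition. Without 1 of the 8 whole-worm libraries it was 1082 to 1284, but leaving out a library relaxes the rule and can only add loci. With 1 scale per library 976 of the 1035 loci stayed loci, and 999 did so when each library was scaled to the median of its table (both scalings and the condition on enrichment were added after the data were seen). Measured as the ratio of enrichments over input, the median change of the loci was 0.040 after *set1* RNAi, the reverse of -0.14 by count, and 0.017 after *mll* RNAi; over all listed regions the same ratio had medians of 0.19 and -0.12, so that the whole *set1* table stood higher by this measure. Without 1 library the median changes of the normalized counts were -0.16 to -0.14 and 0.08 to 0.09. The *mll* region in place of the *set1* region put 65.1% over a gene start, with a median width of 1500 bases. Without a trend limma called 2 higher and 2 lower after *mll* RNAi in X1 and 11 higher in untreated Xins. Without 1 library the calls ranged from 0 to 56 after *set1* RNAi in Xins, from 0 to 165 for higher in X1 and from 0 to 34 for higher in Xins; from 7 to 8 and 4 to 6 after *mll* RNAi in X1, and stayed at 232 after *set1* RNAi in X1. Depth was lower in the sorted-cell tables than in whole worms, and small differences in the first-listed untreated Xins library, with a median of 10.0 reads on the loci, were not detectable.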
